A study of Mus musculus with 8 samples.

Results

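The genes of mouse chromosomes 8 and 16 were followed by their position along each chromosome in embryonic stem cells (ESCs) and in 2 cell types derived from them. The members are all genes placed on these chromosomes by GENCODE M21 on GRCm38 that had a mean count above 10 over 8 RNA-sequencing libraries. They number 1378 of the 16707 genes above this limit in the whole series, 870 on chromosome 8 and 508 on chromosome 16. Of these, 775 and 440 are protein-coding. A further 890 gene IDs on chromosome 8 and 640 on chromosome 16 were at or under the limit. The gene just above it on chromosome 8 was Tmed6, with a mean count of 10.125, and the gene just under it was Gm26812, with 10. On chromosome 16 these were 4930562C15Rik, with 10.125, and Cyp2ab1, with 10. These chromosomes were selected on measured values, since their genes differed in level between tc;Sf1ESCs and tcESCs and between SCLCs and tod-PGCLCs. The values of both comparisons, and the counts of genes past a limit in them, are therefore a description and test nothing.

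There were 4 groups of 2 libraries, labelled as biological duplicates, all from XY cells of the C57BL/6 strain. The tcESCs carry the tesco-cfp reporter, in which an enhancer of Sox9 drives cyan fluorescent protein (CFP). The tc;Sf1ESCs are the same ESCs after electroporation with a plasmid that expresses Sf1 (the gene Nr5a1) constitutively, grown from single colonies that survived selection with G418, so that they stand for 1 selected line. Both ESC lines were kept without feeders in 2iLIF medium. SCLCs (Sertoli cell-like cells) are the CFP-positive cells sorted at day 12 of differentiation of tc;Sf1ESCs, and carry both the reporter and the transgene. The tod-PGCLCs (testicular organoid-derived primordial germ cell-like cells) were sorted at day 6 from organoids in which epiblast-like cells of another ESC line, with the Prdm1-gfp reporter and no Sf1 transgene, grew together with testicular somatic-like cells of the tc;Sf1ESCs. Cells of the latter that passed the gate would carry the transgene. Their gate was GFP with a second surface protein, which the text of the study gives as CD49f in one place and as SSEA1 in another. SCLCs and tod-PGCLCs thus differ in ESC line, culture and cell type at once, and these cannot be told apart.

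As background, neighbouring genes on a chromosome share little in function, and their levels in a cell are set mostly one by one, by their own promoters and enhancers. A median over many neighbours is for this reason little moved by regulation of single genes. Cultured mouse ESC lines are known to gain or lose whole chromosomes, and chromosome 8 is the classical example of a gained one. DNA copy number was not measured here, and its part in the values below was not tested. Chromosome 8 carries, among many others, the neighbouring pair Col4a1 and Col4a2, which encode the main collagen chains of basement membranes. Chromosome 16 carries the orthologues of many genes of human chromosome 21, and its upper part holds the orthologues of the human 22q11 deletion region.

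Stretches before 4 of the 20 genes named below for their distance from their surroundings in the ESC lines are shown first, as examples picked after their values were seen and not as the 4 farthest. Nod2 and Cd200 stood above their neighbours in tc;Sf1ESCs and Crispld2 and Olig2 below. The sequences are the 120 bases before the GENCODE start on the strand of the gene, read from the RefSeq promoter sequences on GRCm38.p6, at chr8:88647195-88647314 (+) for Nod2, chr16:45409054-45409173 (-) for Cd200, chr8:119992318-119992437 (+) for Crispld2 and chr16:91225337-91225456 (+) for Olig2. Capitals mark matches on either strand to a GC box (GGGCGG) or a CCAAT box (CCAAT).
Nod2: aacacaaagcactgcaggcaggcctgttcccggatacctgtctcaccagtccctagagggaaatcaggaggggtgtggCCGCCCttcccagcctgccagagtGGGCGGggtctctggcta
Cd200: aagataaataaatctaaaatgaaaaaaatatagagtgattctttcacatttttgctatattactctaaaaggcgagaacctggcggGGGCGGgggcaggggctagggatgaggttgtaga
Crispld2: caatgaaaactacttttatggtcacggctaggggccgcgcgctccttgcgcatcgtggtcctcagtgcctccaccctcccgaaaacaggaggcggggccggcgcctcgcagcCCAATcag
Olig2: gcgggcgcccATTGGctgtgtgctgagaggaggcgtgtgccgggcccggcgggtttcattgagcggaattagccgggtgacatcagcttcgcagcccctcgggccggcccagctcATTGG
The GC content of the stretches was 62.5%, 40.0%, 63.3% and 68.3%. Their CpG dinucleotides numbered 3, 3, 11 and 11, an order that does not hold for all named genes, since the 300-base promoter of Runx1 (below its window) held 2 and that of Sgo2b (above) 12. In the same 120 bases a GC box was present in 50.3% and a CCAAT box in 26.0% of the 10323 tested genes with a RefSeq promoter within 500 bases of the GENCODE start.

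A second set of sequences is shown because the transgene encodes NR5A1, an orphan nuclear receptor that binds DNA as a monomer at an extended half-site. The letters CAAGGTCA, searched on both strands of the 300-base promoters (250 bases before to 50 after the RefSeq start), were found in 6 of 491 chromosome 8 members with a promoter (1.22%) and 4 of 333 on chromosome 16 (1.2%), against 1.08% of all tested genes with one. All 10 matches lie before the RefSeq start. They are printed as 30 bases on the strand of the gene, with the half-site in capitals as CAAGGTCA or its reverse complement TGACCTTG.
Trap1 (chr16:4077936-4077965, -): tcactgagatcCAAGGTCAaaaagtacagt
Rrn3 (chr16:13780467-13780496, +): ctcctgagcgcCAAGGTCAcgtgcacacgc
Tmem191c (chr16:17276103-17276132, +): gtagcaaaggaTGACCTTGaactcctgatc
BC016579 (chr16:45654238-45654267, -): cctttcctgagCAAGGTCAgctaaccaaag
F10 (chr8:13037267-13037296, +): tatgagagaagTGACCTTGtgtcaagacac
Triml2 (chr8:43180329-43180358, +): gagttttcagcCAAGGTCAgtgttttactg
Ocel1 (chr8:71371078-71371107, +): ctgagtatgtaCAAGGTCAcacacacacaa
Dhps (chr8:85071684-85071713, +): cgggcgctgccCAAGGTCAcgagaccaagt
Terb1 (chr8:104510101-104510130, -): ctggcgtcaggCAAGGTCAaggagggagca
Psmb10 (chr8:105938416-105938445, -): atgccctcttcTGACCTTGgtgggcatgtg
A match is a description of the letters, and binding was not measured.

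The libraries held 25411033 to 30680191 counts on genes, at which 3 counts are 0.0978 to 0.118 CPM (counts scaled to the library total). These limits cover counting error only. Nr5a1, which the plasmid carries, had 1 and 0 counts in tcESCs, 52 and 30 in tc;Sf1ESCs, 341 and 535 in SCLCs and 6 and 5 in tod-PGCLCs, in the order of the labels. All 6 ESC markers reached 1 CPM in both libraries of each group, with a summed level of 2811 to 3508 CPM in the ESC lines. The 7 PGC markers did so in every group too, and summed to 785 to 794 CPM in tod-PGCLCs against 284 to 310 in tcESCs. Of the 8 Sertoli cell markers 4 reached 1 CPM in both SCLC libraries, with a sum of 469 to 475 CPM that was mostly Gata4, and Fshr had at most 1 count in any library. The 7 yolk sac and visceral endoderm markers summed to 453 to 682 CPM in SCLCs. They summed to 19.7 to 26.4 in tod-PGCLCs and 6.45 to 7.52 in tcESCs. In the same order the 5 trophectoderm markers summed to 724 to 908, 158 to 192 and 81.3 to 94.7 CPM. In SCLCs that sum was mostly Krt18 (374 and 466 CPM) and Krt8 (339 and 422). Cdx2 stood at 4.04 and 10.5 CPM there, and Elf5 did not exceed 0.753 in any library. Eomes was lower in SCLCs (6.08 and 8.63 CPM) than in tcESCs (30.9 and 29.5). The tc;Sf1ESCs differed from tcESCs too. Trophectoderm markers were at 21 to 22.5 CPM, though Cdx2 rose from 2.24 and 1.63 to 5.28 and 4.48. The 4 neural markers were at 174 to 178 against 94.7 to 96.9, through Nes and Tubb3. Sox1 overlapped between the lines and Pax6 was slightly lower. PGC markers were at 195 to 196, through lower Dazl (171.5 and 191.5, then 38.96 and 39.49) and Ddx4. The other PGC markers rose, Prdm1 from 7.91 and 8.15 to 22.8 and 23.8. Yolk sac and visceral endoderm markers rose to 12.5 to 13.4 CPM. The 5 Leydig and steroidogenic markers, mostly Star, summed to at least 19.1 against at most 9.78. These markers move together with the values below, and their part was not tested.

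To compare chromosomes, the log2 ratio of mean CPM between groups (0.1 CPM added) was taken for each gene, and the median over all 16707 genes was subtracted, so that 0 is the median gene. Before this step the median gene stood at -0.14 between SCLCs and tod-PGCLCs and at 0.10 between tod-PGCLCs and tcESCs. In tc;Sf1ESCs the median gene of chromosome 8 was 0.46 above that of all genes relative to tcESCs (SD 0.012 over the 4 pairs of libraries), and that of chromosome 16 was 0.44 below it (median -0.44, SD 0.0074). Of the chromosome 8 genes 705 of 870 (81.0%) lay above 0, and of the chromosome 16 genes 93 of 508 (18.3%). The medians of the 17 other autosomes ran from -0.31 on chromosome 6 to 0.18 on chromosome 3. Chromosomes 8 and 16 stood highest and lowest of the 19 autosomes.

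Between SCLCs and tod-PGCLCs the medians were 0.54 (SD 0.023) on chromosome 8 and -0.51 (SD 0.023) on chromosome 16, with 623 and 161 genes above 0. The other autosomes ran from -0.50 on chromosome 11 to 0.11 on chromosome 3, so that chromosome 11 came close to chromosome 16 at the lower end. In these bulk libraries fewer cells of a type and less RNA per cell cannot be told apart. Against their own parent line, SCLCs differed by 0.012 (SD 0.016) on chromosome 8 and -0.08 (SD 0.037) on chromosome 16. The tod-PGCLCs differed from tcESCs by -0.07 (SD 0.020) and -0.0061 (SD 0.0056). These last comparisons share libraries with the first ones, and the medians of all other autosomes lay between -0.15 and 0.096 in the former and -0.32 and 0.48 in the latter.

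**Figure D1:**
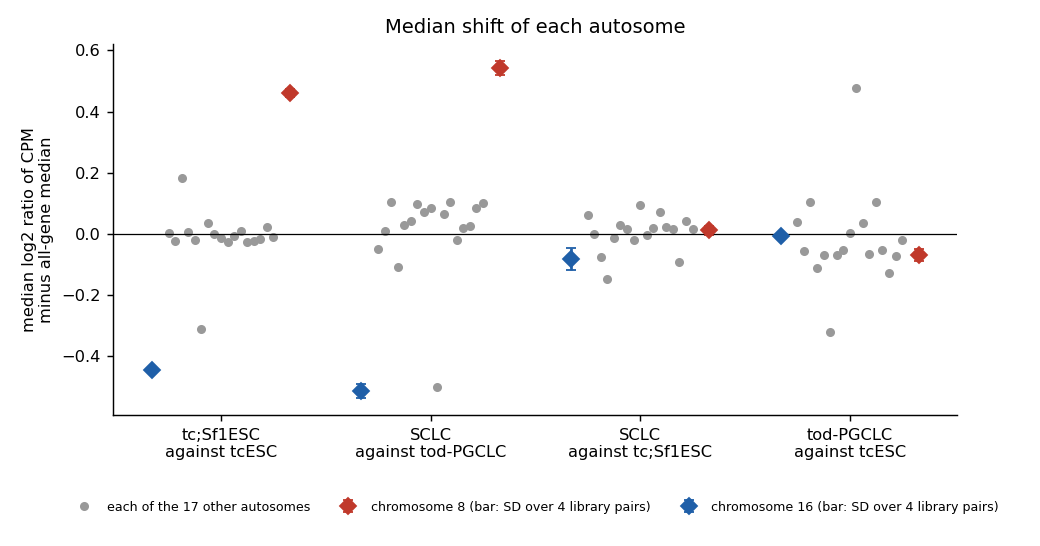
Median centred log2 ratio of CPM per autosome in 4 comparisons (y axis, log2), with 1 grey point for each of the 17 other autosomes and diamonds for chromosomes 8 and 16 with the SD over 4 pairs of libraries. Chromosome 8 is at 0.46 and 0.54 and chromosome 16 at -0.44 and -0.51 in the first 2 comparisons, and both are within 0.1 of 0 in the others.

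The spread between single libraries, each set against the mean of all 8, is given as a description of the values that chose the chromosomes. On chromosome 8 the tcESC libraries stood at -0.22 and -0.21 and the tod-PGCLC libraries at -0.29 and -0.26. The tc;Sf1ESC libraries stood at 0.25 and 0.26 and the SCLC libraries at 0.23 and 0.27. Replicates were at most 0.05 apart. On chromosome 16 the order was turned: 0.27 and 0.27 in tcESCs, 0.21 and 0.23 in tod-PGCLCs, -0.20 and -0.20 in tc;Sf1ESCs, and -0.30 and -0.28 in SCLCs. The libraries of tc;Sf1ESCs and SCLCs did not overlap with those of tcESCs and tod-PGCLCs on either chromosome, as the choice of the chromosomes sets.

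**Figure D2:**
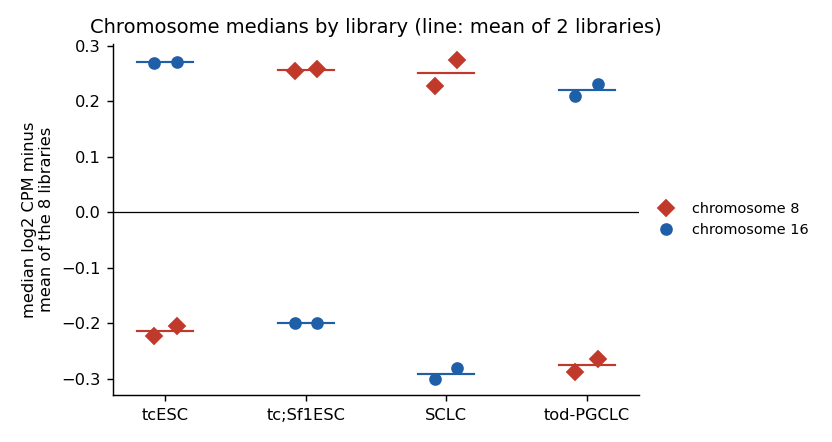
Median over the members of each chromosome of log2 CPM minus the mean of the 8 libraries (y axis, log2), centred on all genes, for each library (x axis, groups). Diamonds (chromosome 8) are below 0 in tcESCs and tod-PGCLCs and above 0 in tc;Sf1ESCs and SCLCs, and circles (chromosome 16) are the reverse.

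The shift could be seen in the share of all counts that fell on each chromosome. Here all gene IDs of a chromosome were summed, those at or under the count limit included. The chromosome 8 genes took 4.36% and 4.41% of the counts in tcESCs and 6.08% in both tc;Sf1ESC libraries. They took 4.01% and 4.04% in tod-PGCLCs and 8.67% and 8.75% in SCLCs, of which Col4a1 alone held 1.92% and 1.88%. Without Col4a1 and Col4a2 the SCLC shares were 5.79% and 5.95%, close to those of the parent line. The chromosome 16 genes took 4.07% and 4.08% in tcESCs, 2.93% and 2.92% in tc;Sf1ESCs, 2.54% and 2.56% in SCLCs and 3.92% and 3.86% in tod-PGCLCs. No chromosome 16 gene took more than 0.173% of a library, so these shares rested on many genes.

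Each chromosome was then cut into windows of 10 Mb by gene start, numbered from 1. In tc;Sf1ESCs against tcESCs all 13 windows of chromosome 8 had a median above 0, in each of the 4 pairs of libraries. The lowest was 0.24 in window 5 (40 to 50 Mb, 47 genes), and the highest 0.53 in window 7 (60 to 70 Mb, 47 genes). The other low windows were window 12, with 0.31 over 73 genes, and window 2, with 0.34 over 53. The remaining 9 lay between 0.40 and 0.51. The SD over windows was 0.090, against an SD over library pairs of 0.016 to 0.081 within a window and a largest difference between replicates of 0.076. All 10 windows of chromosome 16 had a median below 0, again in each pair of libraries. They ran from -0.54 in window 10 (90 to 100 Mb, 70 genes) to -0.28 in window 3 (20 to 30 Mb, 61 genes), and the other 8 lay between -0.51 and -0.40. The SD over windows was 0.074. None of these windows stood at the level of the median gene.

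Between SCLCs and tod-PGCLCs the windows were less even. On chromosome 8, 12 of 13 medians were above 0 in all pairs, up to 0.81 in window 11 (100 to 110 Mb, 107 genes). Window 6 (50 to 60 Mb) had a median of -0.08 with an SD of 0.23 over pairs, and holds only 15 genes, among them Hand2, Vegfc and the high-mobility group gene Hmgb2. On chromosome 16, 8 of 10 medians were below 0 in all pairs, down to -0.80 in window 5 (40 to 50 Mb, 37 genes). Windows 7 and 8 (60 to 80 Mb), with 11 genes each, were at 0.10 and 0.14, and window 10 was at -0.11. The SDs over windows were 0.22 on chromosome 8 and 0.34 on chromosome 16, both larger than in the comparison of the ESC lines.

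**Figure D3:**
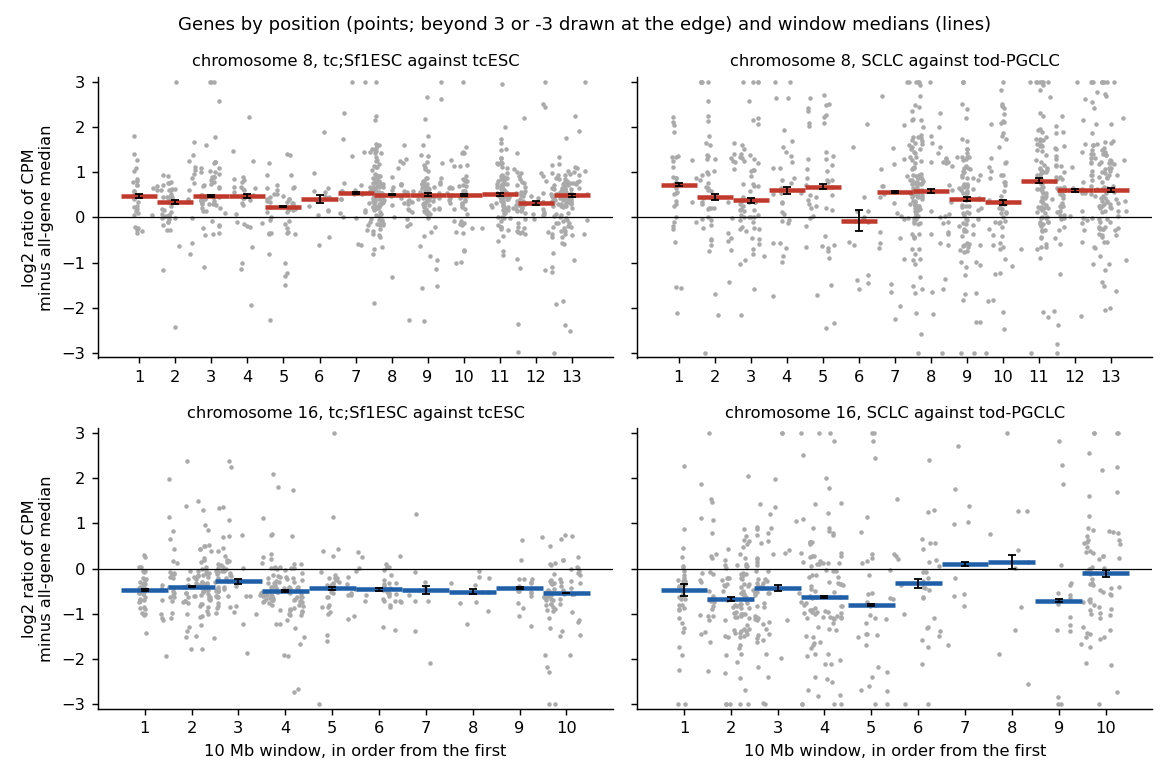
Centred log2 ratio of CPM (y axis, log2) of each member gene (grey points) in order of position, with the window as the x axis, and the median of each 10 Mb window (coloured lines, error bars show the SD over 4 pairs of libraries). Points beyond 3 or -3 are drawn at the edge. In the left panels all 13 windows of chromosome 8 lie above 0 and all 10 of chromosome 16 below. In the right panels windows 7 and 8 of chromosome 16, with 11 genes each, rise above 0 and window 6 of chromosome 8 reaches -0.08.

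In windows 7 and 8 of chromosome 16, 6 and 7 of 11 genes lay above 0 between SCLCs and tod-PGCLCs. In window 7 of chromosome 16 the levels of Nsun3, an RNA methyltransferase, and Pros1, which encodes the anticoagulant protein S, stood at 0.98 and 1.76, Vgll3, a cofactor of TEAD factors, at 1.37 and the ephrin receptor Epha3 at 2.71, while the pseudogene Gm9027 stood at -1.69. In window 8 the axon guidance receptor Robo2 stood at 4.28 and its neighbour Robo1 at -1.88. Cxadr, a cell adhesion protein, stood at 1.28 and Nrip1, a nuclear receptor corepressor, at 1.26, while D16Ertd472e stood at -2.54 and Rbm11 at -1.35. These genes were chosen after their values were seen. Between the ESC lines 10 of the 11 genes of window 7 were below 0, the exception being Pros1 at 1.2, and all 11 of window 8 were.

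The shift in tc;Sf1ESCs was present at every level of expression and narrowest among well-measured genes. All tested genes were split by mean CPM into 3 equal classes. In the highest class, 317 of 344 chromosome 8 genes (92.2%) were above 0 with a median of 0.46, and 11 of 197 chromosome 16 genes (5.58%) with a median of -0.50. The same class on the other autosomes had a median of -0.02 and 46.5% of genes above 0. In the middle class the medians were 0.54 and -0.50. In the lowest class, below 5.05 CPM, they were 0.26 and -0.17, with 64.0% and 38.3% of genes above 0. The distance between quartiles grew from 0.34 to 1.06 on chromosome 8 from the highest to the lowest class, so single low genes say little.

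**Figure D4:**
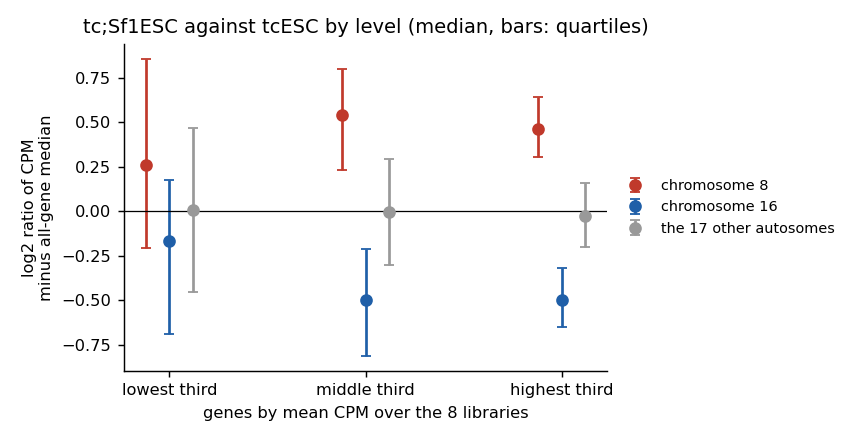
Median and quartiles (bars) of the centred log2 ratio of tc;Sf1ESCs against tcESCs (y axis, log2) for 3 equal classes of genes by mean CPM (x axis). Chromosome 8 stands at 0.26, 0.54 and 0.46 and chromosome 16 at -0.17, -0.50 and -0.50, with the other autosomes at 0.02 or less from 0.

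Strand and gene length made little difference. The chromosome 8 median was 0.45 for 457 genes on the plus strand and 0.47 for 413 on the minus strand, and the chromosome 16 medians were -0.46 and -0.44. The shortest, middle and longest genes, in 3 equal classes, stood at 0.47, 0.49 and 0.41 on chromosome 8 and at -0.40, -0.48 and -0.49 on chromosome 16. Protein-coding genes stood at 0.47 and -0.48. The 36 pseudogenes of chromosome 8 stood at 0.09 and the 24 of chromosome 16 at -0.02. Reads of a pseudogene can be shared with a parent gene on another chromosome, and their levels are uncertain. The width of the distribution was that of other chromosomes: quartiles were 0.59 and 0.57 apart on chromosomes 8 and 16 and 0.57 on the other autosomes, and 11.7%, 11.4% and 12.6% of genes differed more than 2-fold from the median of their own set.

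The number of single genes past a limit is given as a description. With a fold change over 2 and an adjusted p under 0.05 (edgeR, quasi-likelihood, Benjamini-Hochberg), 118 chromosome 8 genes were called higher and 24 lower in tc;Sf1ESCs. On chromosome 16, 18 were called higher and 58 lower. Over all genes tested 12.0% were called, 6.13% higher and 5.85% lower, against 13.6% and 2.76% of the chromosome 8 members and 3.54% and 11.4% of the chromosome 16 members. The comparison chose the chromosomes, so nothing is read from these shares or from the calls in the gene lists below. When the fold was counted from the median of the gene's window instead, a setting chosen after seeing the data, 54 were higher and 29 lower on chromosome 8 and 24 and 25 on chromosome 16, where this setting called 5.66% of all placed genes higher and 5.47% lower. All 54 genes so called higher on chromosome 8 were among the 118, and all 25 called lower on chromosome 16 among the 58.

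The genes farthest from their window were named for each chromosome, 5 above and 5 below, among protein-coding genes of at least 1 CPM on average for which every library of one group exceeded every library of the other. On chromosome 8, 643 genes were eligible, and on chromosome 16, 382. Those above on chromosome 8 began with Myom2, a protein of the muscle M band (chromosome 8 from 15057653 to 15133541), which had 0.315 and 0.228 CPM in tcESCs and 7.29 and 7.30 in tc;Sf1ESCs, 3.98 above its window on the log2 scale. Ido2, a tryptophan-degrading enzyme (24531892 to 24576333), had 3.54 and 4.60 CPM in tcESCs and 66.5 and 62.3 in tc;Sf1ESCs, 3.48 above. Its near neighbour Adam32, a membrane protein of the ADAM family known from testis (24836140 to 24948804), had 1.02 and 1.21 CPM and then 17.2 and 17.1, 3.36 above. Both genes were low again in the derived cells, with Ido2 at 1.74 and 1.2 CPM in SCLCs, so that their high level was seen in tc;Sf1ESCs and not in the cells made from them. Nod2, an intracellular sensor of bacterial peptides, had 0.512 and 0.554 CPM in tcESCs and 8.49 and 8.78 in tc;Sf1ESCs, 3.29 above. Sgo2b, a paralogue of the centromere guardian shugoshin 2, had 0.315 and 0.522 CPM and then 6.6 and 7.41, 3.25 above, and reads shared with its paralogue make its level uncertain. The next gene outside the rule, Gm3952, was 3.0 above.

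Below their window on chromosome 8 in tc;Sf1ESCs stood Crispld2, a secreted protein of the CAP family (119992438 to 120052793), with 8.93 and 9.55 CPM in tcESCs and 0.579 and 0.759 in tc;Sf1ESCs, a departure of -3.91. In SCLCs it was at 19.4 and 45.0 CPM. Sult5a1, a sulfotransferase, had 2.16 and 2.02 CPM in tcESCs and 0.347 and 0.289 in tc;Sf1ESCs (departure -2.86). Il27ra, a subunit of the interleukin 27 receptor, had 2.48 and 2.54 CPM and then 0.540 and 0.325 (departure -2.79). These genes lie on a chromosome whose median was above 0. Arhgef10 had 5.27 and 5.74 CPM and then 0.964 and 0.903 (departure -2.77). It runs from 14911663 to 15001085 in the same window as Myom2, the gene farthest above. Hhip, an inhibitor that binds hedgehog ligands, had 2.05 and 2.31 CPM and then 0.347 and 0.397 (departure -2.76). The next gene, Calb2, had a departure of -2.68.

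On chromosome 16 the gene farthest above its window in tc;Sf1ESCs was Cd200, an immunoglobulin-family surface protein (45382135 to 45409053), with 0.748 and 1.17 CPM in tcESCs and 10.1 and 9.72 in tc;Sf1ESCs, 3.69 above. Kng2, which encodes a kininogen and has a near-identical copy in Kng1, had 0.433 and 0.424 CPM and then 2.16 and 3.07, 2.65 above. Slc51a, a subunit of the bile acid and steroid transporter OST, had 2.28 and 2.18 CPM and then 10.2 and 9.25, 2.59 above. These genes lie on a chromosome whose median was below 0. Rtp4, an interferon-induced receptor transport protein, had 0.197 and 0.228 CPM and then 1.54 and 1.19, 2.52 above, and Rpl39l, a germ cell paralogue of the ribosomal protein gene Rpl39, had 8.42 and 11.5 and then 38.5 and 40.6, 2.39 above. The next gene, Slc12a8, was 2.30 above. Rtp4 was far higher in SCLCs, with 109 and 111 CPM, and in tod-PGCLCs, with 60.8 and 69.2.

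Among the genes below their window on chromosome 16 were the neighbouring oligodendrocyte lineage factors Olig2 and Olig1. Olig2 (91225457 to 91228677) had 90.8 and 92.7 CPM in tcESCs and 9.45 and 8.92 in tc;Sf1ESCs, a departure of -2.75, and Olig1 (91269772 to 91271933) had 25.9 and 25.8 and then 5.59 and 4.81, a departure of -1.74. In SCLCs and tod-PGCLCs Olig2 did not exceed 0.415 CPM. Gap43, a growth cone protein, had 35 and 53 counts in tcESCs and 1 and 0 in tc;Sf1ESCs, and was at least 13.9-fold lower, computed against 3 counts in each library. Runx1, a factor of blood formation (92601466 to 92826149), had 3.50 and 4.27 CPM and then 0.347 and 0.217 (departure -2.83). Fstl1, a secreted glycoprotein, had 241 and 249.8 CPM and then 37.4 and 39.9 (departure -2.15). The next gene, Vgll3, had a departure of -1.61.

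**Figure D5:**
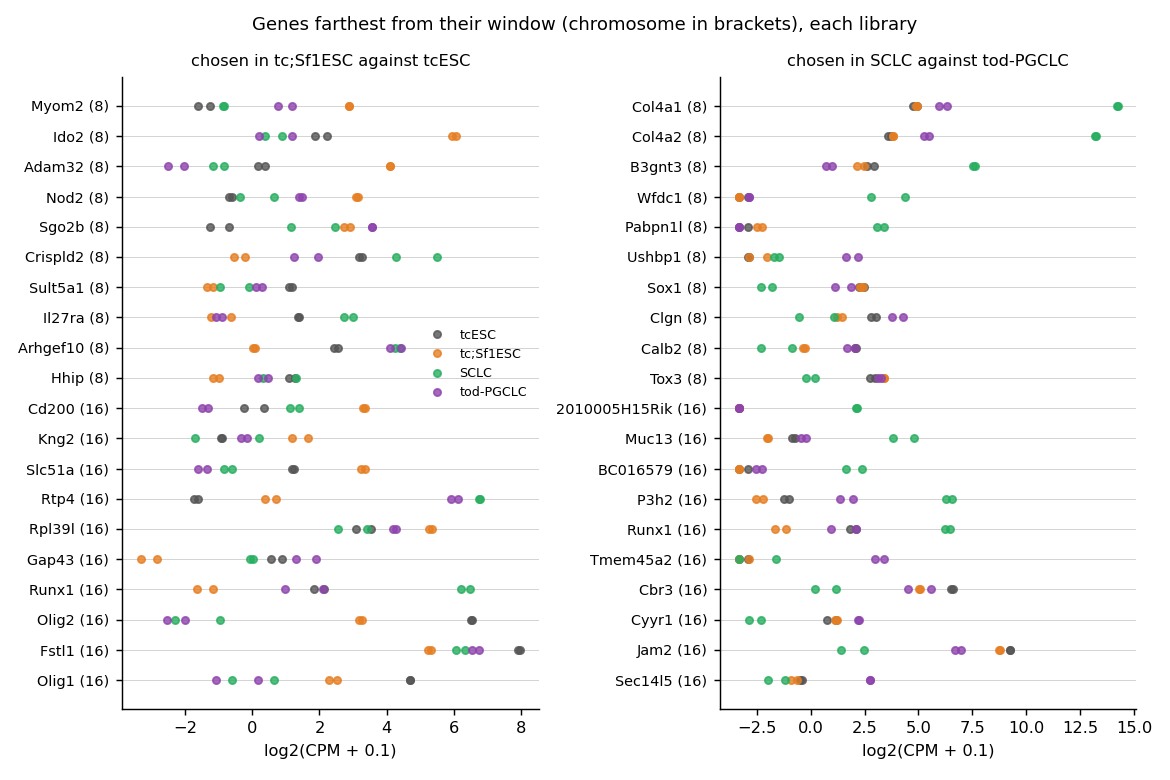
log2(CPM + 0.1) in each library (x axis; 2 points a group, colours for the groups) of the genes farthest from their window, 5 above and 5 below for each chromosome (y axis), chosen in tc;Sf1ESCs against tcESCs (left) or in SCLCs against tod-PGCLCs (right). Orange points of Ido2 (66.5 and 62.3 CPM) lie right of the other groups of that gene, and green points of Col4a1 reach 19179.8 and 18783 CPM.

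Gene lists by role held many genes that lay on the side of their chromosome without passing the limits. All 11 measured genes of a list of general and cell cycle regulators on chromosome 8 were above 0 in tc;Sf1ESCs, with a median of 0.47 and none called, beside 81.0% and 0.46 for all members of that chromosome. Most encode transcription factors or their partners, but Tnpo2 is a nuclear import receptor, Cnot1 a scaffold of mRNA deadenylation and Elmo3 a protein of cell engulfment and motility. Ctcf, which organises chromatin loops, had 220 and 211 CPM in tcESCs and 285 and 287 in tc;Sf1ESCs, and E2f4, a repressor in resting cells, had 195 and 196 and then 250 and 244. The libraries did not overlap in either case. The 12 genes of the chromatin and replication list of chromosome 16 were all below 0, with a median of -0.58 and none called, beside a median of -0.44 and 18.3% above 0 for that chromosome. This list also holds Gart, an enzyme of purine synthesis, and Dgcr8, a microRNA processing factor. Cdc45, a part of the replicative helicase, had 118 and 125 CPM in tcESCs and 77.1 and 74.7 in tc;Sf1ESCs, and Chaf1b, a subunit of chromatin assembly factor 1, had 149.9 and 160.4 and then 117 and 117.

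Of the 54 measured orthologues of human chromosome 21 genes on chromosome 16, 49 were below 0 in tc;Sf1ESCs, with a median of -0.53, 10 called lower and none higher, where 11.4% of the chromosome 16 members and 5.85% of all genes were called lower. The median of all tested genes is 0 on this scale. Sod1, which encodes a superoxide dismutase, had 373 and 383 CPM in tcESCs and 239 and 244 in tc;Sf1ESCs. App, the amyloid precursor protein, had 58.0 and 56.6 and then 27.4 and 27.2, and Ets2, a factor downstream of Ras signalling, had 73.5 and 70.8 and then 18.6 and 19.1. The 28 measured 22q11 orthologues had a median of -0.43 with none called, and Ranbp1, a regulator of nuclear transport, had 404 and 435 CPM and then 299.8 and 304. The 20 developmental regulators of chromosome 16 had 6 called lower and none higher, Cebpd and Robo2 among them besides Ets2, Runx1, Olig1 and Olig2.

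Further lists held genes with larger differences. Of 8 gonad, steroid and germ cell genes on chromosome 8, all lay above 0 in tc;Sf1ESCs with a median of 0.99, and 4 were called higher, where 13.6% of the chromosome 8 members and 6.13% of all genes were. Star, the carrier of cholesterol into mitochondria and a classical NR5A1 target, had 7.20 and 7.37 CPM in tcESCs and 17.4 and 16.1 in tc;Sf1ESCs. Nanos3, a germ cell RNA-binding protein, had 1.93 and 1.99 and then 9.10 and 9.07. Hsd17b2, a steroid dehydrogenase, had 0.236 and 0.489 and then 4.05 and 3.76, and Gdf15, a stress-induced growth factor, 6.65 and 6.71 and then 21.1 and 18.0. None of these levels overlapped between the lines. Of 6 plasma protein genes on chromosome 16, 3 were called higher, Ahsg, Kng2 and Pros1, against the direction of the chromosome. Pros1 had 121 and 123 CPM in tcESCs and 282 and 276 in tc;Sf1ESCs. None of the 19 carboxylesterase genes of chromosome 8 or the 4 spermatid packaging genes of chromosome 16 passed the count limit.

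The remaining lists were small. On chromosome 8, 1 of 6 cadherins was called higher in tc;Sf1ESCs (Cdh3, with 10.1 and 9.91 CPM in tcESCs and 40.2 and 39.6 in tc;Sf1ESCs), 3 of 11 matrix and vessel factors (Angpt2, Comp and Tll1) and 5 of 18 developmental factors (Irf2, Irx5, Nfix, Nr3c2 and Sall1), with Irf8 called lower, where 6.13% of all genes and 13.6% of the chromosome 8 members were called higher and 5.85% and 2.76% lower. Nfix, a factor of the nuclear factor I family, had 3.35 and 2.90 CPM and then 20.1 and 20.1. Of the 4 metallothionein genes 2 passed the count limit, Mt1 and Mt2, and neither was called. Of the 4 plasma proteins and proteases Tat was called lower. The ribosomal protein, proteasome and oxidative phosphorylation lists held 2 to 3 measured genes per chromosome, with list medians of 0.94, 0.013 and 0.64 on chromosome 8 and -0.27, -0.47 and -0.38 on chromosome 16.

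Between SCLCs and tod-PGCLCs, the calls on chromosome 8 were 290 higher and 76 lower, and those on chromosome 16 were 56 higher and 166 lower, where 38% of all genes were called, 19.5% higher and 18.5% lower. This comparison chose the chromosomes too. Counted from the window median the numbers were 160 and 125 on chromosome 8 and 75 and 90 on chromosome 16, at 18.5% and 17.1% of all placed genes. The 2 collagen chains lay farthest above their window. Col4a1 (11198423 to 11312826, minus strand) had 61.4 and 80.3 CPM in tod-PGCLCs and 19179.8 and 18783 in SCLCs, 7.76 above its window, and Col4a2 (11312805 to 11449287, plus strand) had 37.9 and 45.4 and then 9586 and 9233, 7.51 above.

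Col4a1 and Col4a2 are transcribed away from each other and the annotated genes overlap at their starts by 22 bases, at chr8:11312805-11312826 (plus strand), which is printed to show how close the starts are.
Col4a1 and Col4a2: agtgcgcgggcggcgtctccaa
In the ESC lines Col4a1 had 27.1 to 30.3 CPM and Col4a2 11.8 to 14.1. In the same SCLCs P3h2, a prolyl hydroxylase that modifies collagen IV, stood 5.31 above its window on chromosome 16, with 2.47 and 3.84 CPM in tod-PGCLCs and 77.7 and 95.1 in SCLCs.

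The other genes above their window on chromosome 8 were B3gnt3, a glycosyltransferase, with 1.56 and 1.88 CPM in tod-PGCLCs and 194 and 183 in SCLCs, Wfdc1, a secreted protease inhibitor, and Pabpn1l, a poly-A binding protein of oocytes and early embryos. Wfdc1 had 1 count in each tod-PGCLC library and 545 and 197 in SCLCs. The mean of these unequal SCLC levels was at least 123-fold higher. Pabpn1l had 0 counts in both tod-PGCLC libraries and 277 and 244 in SCLCs, at least 84.9-fold higher. On chromosome 16 Muc13, a surface mucin of epithelia, had 0.763 and 0.640 CPM in tod-PGCLCs and 14.0 and 27.6 in SCLCs, and Runx1 1.85 and 4.22 and then 74.8 and 88.7. The genes 2010005H15Rik, with 0 counts in all 6 other libraries, and BC016579, with 2 and 3 counts in tod-PGCLCs, were at least 38.4-fold and at least 37.2-fold higher in SCLCs. Runx1 was among the genes farthest below its window in the ESC comparison and among those farthest above it here.

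Below their window on chromosome 8 in SCLCs stood Ushbp1, Sox1, Clgn, Calb2 and Tox3, with departures of -3.94 to -3.37. Sox1, a factor of early neural cells, had 58 and 96 counts in tod-PGCLCs and 5 and 3 in SCLCs, and Clgn, a chaperone of spermatogenic cells, had 19.4 and 13.4 CPM and then 2.04 and 0.584. On chromosome 16 these were Tmem45a2, Cbr3, Cyyr1, Jam2 and Sec14l5, with departures of -4.96 to -3.65. Jam2, a junctional adhesion molecule, had 124 and 104 CPM in tod-PGCLCs and 5.55 and 2.58 in SCLCs, far under its 610.3 and 610.2 CPM in tcESCs. Cyyr1 had 127 and 121 counts in tod-PGCLCs and 1 and 3 in SCLCs, at least 42.4-fold lower. Cbr3, a carbonyl reductase, had 47.9 and 22.9 CPM and then 1.06 and 2.13.

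Among the lists, the chromatin and replication list of chromosome 16 had a median of -1.0 between SCLCs and tod-PGCLCs, with 6 of 12 called lower, Gart among them, and none higher. The general and cell cycle regulators of chromosome 8 had a median of 0.64 with 3 of 11 called higher, Elmo3, Nfat5 and Rbl2. Of the members 32.7% were called lower on chromosome 16 and 33.3% higher on chromosome 8, and of all genes 18.5% and 19.5%. Developmental factors of chromosome 8 had 11 of 18 called higher, Junb and Foxf1 among them, and Klf2 and Sox1 lower. The 54 human chromosome 21 orthologues were split, with 11 called higher and 14 lower and a median of -0.21. App had 108 CPM in both tod-PGCLC libraries and 640 and 746 in SCLCs, and Gart had 461 and 493 and then 137 and 123.

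The remaining comparisons, with chromosome medians near 0, did not choose the chromosomes. Between SCLCs and tc;Sf1ESCs, edgeR's quasi-likelihood test called 211 chromosome 8 genes higher and 150 lower, and 103 chromosome 16 genes higher and 105 lower. These were 24.3% and 17.2% of the chromosome 8 members and 20.3% and 20.7% of the chromosome 16 members, with 42.2% of all genes called, 24.2% higher and 18.0% lower. The chromosome 8 shares are near those of all genes. Between tod-PGCLCs and tcESCs, 135 and 87 genes were called on chromosome 8 and 77 and 62 on chromosome 16, being 15.5% and 10% and 15.2% and 12.2% of the members, with 29.4% of all genes called, 18.1% higher and 11.2% lower. Both comparisons share libraries with those that chose the chromosomes, so genes also called there are given below by their values, without a test.

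Between SCLCs and tc;Sf1ESCs, the plasma proteins and proteases F10, Lcat and Plat of chromosome 8 were called higher, but F10 had passed the count limit only through its SCLC counts, and Lcat and Plat were also called higher in the same SCLC libraries against tod-PGCLCs. On chromosome 16 Apod, Fetub, Kng2, Pros1 and Thpo were called lower, but Kng2 and Pros1 had been called high in the same tc;Sf1ESC libraries, and the other 3 were also called lower against tod-PGCLCs. Nothing is read from these counts. Col4a1 went from 29.7 ± 0.872 CPM (SD, n = 2) to 18981 ± 281 and Col4a2 from 14.0 ± 0.0113 to 9409.8 ± 249.5, values given without a test because the genes were named for their level in the same SCLC libraries. Plat, the tissue plasminogen activator, went from 0.892 ± 0.170 to 113 ± 11 CPM, and the insulin receptor gene Insr, which acts in testis determination, from 38.6 ± 0.806 to 153 ± 2.95. On chromosome 16, App went from 27.3 ± 0.125 to 693 ± 74.5 CPM and Adamts1, a matrix protease, from 0.447 ± 0.0321 to 46.9 ± 10.4. Among the matrix and vessel factors that neither choosing comparison had called, the growth factor gene Vegfc fell from 25.1 ± 0.576 to 3.65 ± 1.03 CPM (log2 fold change -2.74, adjusted p = 2.37e-06 from edgeR) and Fat1, an atypical cadherin, from 659 ± 14.5 to 167 ± 3.50 (-1.94, adjusted p = 1.20e-06 from edgeR). Mmp2, a gelatinase, rose from 3.48 ± 0.341 to 18.5 ± 10.2 CPM (2.45 on the log2 scale, adjusted p = 0.000222 from edgeR).

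Among the transcription factors of the lists, Klf2, a factor of naive pluripotency, went from 394 ± 10.5 CPM in tc;Sf1ESCs to 35.3 ± 21.3 in SCLCs, and Etv5, which is also an ESC factor, from 301 ± 6.19 to 44.3 ± 21.9. Of the gonad, steroid and germ cell genes that neither choosing comparison had called, Irs2 and Hsd11b2 rose and Insl3 fell, where 24.2% of all genes were called higher and 18.0% lower. Gdf15, Hsd17b2, Nanos3 and Star were called lower too, but are the genes of the list that were high in the same tc;Sf1ESC libraries, so nothing is read from it. Star went from 16.8 ± 0.932 to 6.80 ± 1.71 CPM, beside 7.28 ± 0.116 in tcESCs. Ido2 went from 64.4 ± 2.97 to 1.47 ± 0.377 CPM and Adam32 from 17.2 ± 0.0807 to 0.398 ± 0.0771, without a test because both were named for being high in the same tc;Sf1ESC libraries. Both measured metallothionein genes fell, Mt1 by 1.82 and Mt2 by 2.06 (adjusted p = 5.78e-05 and 1.57e-06 from edgeR).

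In tod-PGCLCs against tcESCs both measured metallothionein genes fell too, Mt1 by 1.25 and Mt2 by 1.01 on the log2 scale (adjusted p = 0.000843 and 0.000203 from edgeR). Cdh1, which encodes E-cadherin, fell from 880.4 ± 23.9 to 348 ± 7.73 CPM (adjusted p = 8.06e-05 from edgeR). It went against its list, since 4 of 6 measured cadherins were called higher (Cdh11, Cdh15, Cdh3 and Cdh5) and the list median was 2.52. Of all genes 18.1% were called higher. Cdh11, Cdh3 and Cdh5 had been called higher in a choosing comparison too, so nothing is read from these, while Cdh15 had not. Insr went from 22.8 ± 0.251 to 67.1 ± 9.37 CPM. Irs2, its substrate, rose from 9.29 ± 0.780 to 20.7 ± 0.489 CPM (log2 fold change 1.09, adjusted p = 8.79e-05 from edgeR). Cldn5, a claudin of tight junctions, went from 0.921 ± 0.357 to 9.62 ± 0.403 CPM. Olig2 went from 91.7 ± 1.35 to 0.112 ± 0.0551 CPM and Jam2 from 610.2 ± 0.0621 to 114 ± 14.7, without a test because they were named for values in the same tcESC or tod-PGCLC libraries. None of the 12 genes of the chromatin and replication list of chromosome 16 passed the test in either direction, where 18.1% of all genes were called higher and 11.2% lower.

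Of the 10 genes with an NR5A half-site printed above, BC016579 and F10 had at most 3 counts in any ESC library, too few for a call. None of the other 8 was called in either direction between the ESC lines, where 12.0% of all genes were, and their departures from the window ran from -0.92 (Psmb10) to 0.47 (Triml2). Trap1, a mitochondrial chaperone, had 325 and 331 CPM in tcESCs and 226 and 231 in tc;Sf1ESCs, a departure of -0.05. Dhps, the enzyme that begins the hypusine modification, had 43.3 and 48.1 and then 67.8 and 70.2, 0.10 above. Between SCLCs and tc;Sf1ESCs Terb1 and Psmb10 of these 8 were called higher, where 24.2% of all genes were called higher and 18.0% lower. Rrn3 had 349 and 341 CPM in tc;Sf1ESCs and 132 and 117 in SCLCs. It is given without a test because it was also called lower in the same SCLC libraries against tod-PGCLCs. BC016579 and F10 passed the count limit only through the SCLC libraries, so that their level there is no separate result. F10, coagulation factor X, rests on few counts, at 0.528 and 2.34 CPM in SCLCs and at most 0.0723 in any other library.

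Promoters of genes that departed from their window held fewer CpG dinucleotides. Among members with a promoter, the 40 that stood more than 1 (log2) above their window in tc;Sf1ESCs against tcESCs had a median of 11.5 CpG in 300 bases and the 42 more than 1 below had 15, against 22 for the 742 within. Between SCLCs and tod-PGCLCs the medians were 18 for 123 genes above, 16 for 129 below and 23 for 572 within. The departing genes were also lower in level, with median mean levels of 5.30 and 3.36 CPM between the ESC lines against 40.8 CPM for those within, and the part of level in this difference was not tested.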

How the data were processed

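RNA was poly-A selected, and strand-specific cDNA was sequenced as paired ends, trimmed with Trim Galore and aligned with STAR 2.4.0 to GRCm38. The authors deposited raw read counts per gene ID for each of the 8 libraries, and HTSeq, Picard and DESeq2 stand in the submitters' processing notes. Rows that name no gene held 35.6% to 41.6% of the counts of a library and were set aside. Genes were placed by GENCODE M21, and 66 tested genes were not placed.

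CPM were computed from the total on genes, and log2 ratios of group means with 0.1 CPM added were centred on the median of all tested genes. The departure of a gene is its ratio minus the median of its 10 Mb window. Named genes were the 5 farthest above and below, per chromosome and comparison, among protein-coding genes of at least 1 CPM whose groups did not overlap. The members, lists and rules were chosen with earlier results of these data known. Counts over all genes were fitted in edgeR 4.0.16 (R 4.3.3; TMM, quasi-likelihood test, Benjamini-Hochberg adjustment), with all 4 groups in 1 fit. Alternatives were DESeq2 1.42.0, other count limits and pseudocounts, protein-coding genes only, other windows, a replicate block and leaving out each library. The labels call the duplicates biological without naming cultures, so p-values measure the spread between these libraries.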

Additional observations from a re-analysis of the deposited data

How the results depend on the processing

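With 2 libraries a group and no DNA measurement, the medians rest on many genes, while single genes at the lowest levels are near the floor of 3 counts. No alternative was counted as reversing any of the 40 named departures or of the 46 window medians of the comparisons that chose the chromosomes. A reversal was counted only where the reported value exceeded in size its SD over the 4 pairs of libraries. For SCLC against tod-PGCLC, window 6 of chromosome 8 (-0.08, SD 0.23) and window 8 of chromosome 16 (0.14, SD 0.15) did not. No reversal could be counted there. Of the departures 190 of 240 values, and of the window medians 245 of 368, lay within 1 SD of the reported one and the rest moved further. For tc;Sf1ESC against tcESC the chromosome 8 median was 0.49 with a mean count above 100, 0.49 with protein-coding genes only, 0.40 with 1 CPM added and 0.48 from edgeR, where in both restricted settings the ratios were centred on the restricted genes, not on all genes. The chromosome 16 median was -0.48, -0.46, -0.40 and -0.46 in the same order, and -0.47 with no pseudocount. For SCLC against tod-PGCLC they were 0.51 and -0.57 above 100 counts and 0.45 and -0.39 with 1 CPM added, and chromosome 16 was at -0.55 with protein-coding genes. For SCLC against tc;Sf1ESC chromosome 8 turned to -0.043 above 100 counts and -0.055 with protein-coding genes, and chromosome 16 was at -0.13 with the latter. In every comparison these restricted settings were centred on the restricted genes, so such values carry the changed centring too. For tod-PGCLC against tcESC chromosome 16 turned to 0.017 above 100 counts and 0.0045 with 1 CPM added, and stood at -0.020 with protein-coding genes and -0.013 with no pseudocount. The cause was not tested.

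Leaving out 1 library gave medians of 0.46 to 0.47 and -0.46 to -0.44 for tc;Sf1ESC against tcESC, 0.53 to 0.55 and -0.53 to -0.50 for SCLC against tod-PGCLC, 0.0011 to 0.016 and -0.11 to -0.042 for SCLC against tc;Sf1ESC, and -0.088 to -0.046 and -0.020 to -0.0068 for tod-PGCLC against tcESC, on chromosomes 8 and 16. The genes called numbered 103 to 111 and 61 to 68, 332 to 379 and 205 to 223, 341 to 366 and 194 to 228, and 194 to 207 and 124 to 133. Counting the fold from the window median, a setting chosen after seeing the data, lowered the calls of tc;Sf1ESC against tcESC from 142 to 83 on chromosome 8 and from 76 to 49 on chromosome 16, by its own construction.

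Replicate numbers did not pair the libraries, since deviations of same-numbered libraries correlated at -0.026 to 0.062. With a replicate block 139 and 76 genes were called for tc;Sf1ESC against tcESC and 363 and 221 for SCLC against tod-PGCLC, and the medians of log2 ratios averaged within replicate numbers, without that model, were 0.46 and -0.45 and 0.55 and -0.51. Of the 96 alternative call counts, 94 stayed within 1.5 times the reported ones, the exceptions being the pair counted from the window median.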
